A study of Equus caballus with 6 samples.

Results

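The immature-restricted sequences are small RNAs that were read in every library of immature horse testis and almost never in mature testis. They were chosen by their read counts: a sequence was taken when it had at least 3 reads in each of the 3 immature libraries and at most 1 read over the 3 mature libraries summed. This rule took 7050 of the 4936717 distinct sequences of 25 to 32 nt in the deposited table, or 0.143% of them. Because the counts of both groups chose the members, their levels in immature and mature testis are given as a description, with no test and no fold change. The tests below concern length and base composition, which the rule did not read. They are not independent of it, because their read shares are weighted by counts that the rule used. All sequences together also differ in these features between immature and mature libraries, so the split by mature reads is not neutral to them.

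The libraries were made from total RNA of testes of the Mongolian horse, 3 labelled immature and 3 labelled mature, by adapter ligation at either end of the small RNAs and selection of the product on a gel. The labels give no age, no stage of spermatogenesis and no treatment, and they do not say whether the libraries of a group came from separate animals, so p-values measure only the spread between these libraries. The table held 1382083, 2347351 and 1462339 reads in immature replicates 1, 2 and 3 and 4139452, 4032042 and 4550970 in mature replicates 1, 2 and 3. It holds no gene names, so the tissue labels could not be checked against marker genes. Levels are given as CPM, the count scaled to the library's total in the table. With 0 reads, as many as 3 could have been missed, which over the 12722464 mature reads summed is 0.236 CPM. Intervals and such floors cover counting error only, because no molecular identifiers mark which reads copy the same molecule. In whole testis, fewer cells of a type and less RNA per cell cannot be told apart.

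PIWI-interacting RNAs (piRNAs) are small RNAs of the germ line that are loaded into PIWI proteins and guide them to matching transcripts, above all those of transposons. Primary piRNAs are cut from long precursors and usually begin with uridine, and different PIWI proteins hold piRNAs of different length. In the ping-pong cycle the cut that one loaded piRNA makes in a transcript of the opposite strand becomes the 5′ end of a new piRNA. The partners then overlap by 10 nt at their 5′ ends, and the partner of a piRNA with uridine at position 1 has adenine at position 10. The 3′ end is trimmed afterwards, so that 1 5′ end often occurs with several lengths.

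The 10 members with the highest mean level in immature testis are shown 5′ to 3′ as the table writes them, with T for uridine. A capital T marks uridine at position 1 and a capital A marks adenine at position 10, where present.
uniq_410708: Tagtactctccgtgtctgtgaactgac
uniq_416916: Tactctccgtgtctgtgaactgacc
uniq_2350185: TtcccaaagAgctggaagcaagatgctgt
uniq_7172064: Tagaccttgtgacttaggcagtgatgtg
uniq_8230128: Tgctcgattgcctggatgtccttggc
uniq_9742342: Tgcaaggtttgtggaagccctggagc
uniq_3705044: Ttgaaagtctggcagagaaagcgtga
uniq_3765807: Ttcatgggtgaactgtgggccttcc
uniq_5269072: Ttccagagtttggacggctgtgtgga
uniq_7912828: TagaatagcAaggatcttgagatgactgt

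All 10 begin with uridine, and uniq_2350185 and uniq_7912828 also carry adenine at position 10. Their lengths run from 25 to 29 nt. The first and the second come from the same stretch of RNA: uniq_416916 starts 3 nt inside uniq_410708 and ends 1 nt beyond it.

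Even the most abundant members were rare, and their levels differed between the immature libraries. uniq_410708 had 283, 103 and 81 reads in immature replicates 1, 2 and 3, and 0, 1 and 0 in the mature libraries. This is 205, 43.9 and 55.4 CPM in immature testis, so replicate 1 stood far above the others. uniq_416916, its shifted neighbour, had 124, 94 and 67 reads and was likewise highest in replicate 1, at 89.7 CPM against 40.0 and 45.8. uniq_2350185 went the other way, with 55, 248 and 25 reads, and its highest level was the 106 CPM of replicate 2. uniq_9742342 was the only 1 of these 10 with 0 mature reads, and it had 64, 66 and 82 reads in the immature libraries, lowest in replicate 2 at 28.1 CPM and highest in replicate 3 at 56.1 CPM. The mean levels of the 10 ran from 37.0 to 101 CPM, and the other 9 had 1 mature read each.

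The set as a whole was made of many rare sequences, with no few that dominated it. A member had a median of 6, 7 and 5 reads in immature replicates 1, 2 and 3, and the highest counts were 283, 248 and 97. Counts of 3 to 9 reads made up 76.3%, 65.5% and 82.7% of the members in these libraries. Over the 3 libraries the mean level ran from 1.83 to 101 CPM with a median of 3.76 CPM. The 10 most read members held 1.51% and the 100 most read 7.04% of all immature reads of the set. Together the members took 4.02%, 2.93% and 3.26% of the reads of immature replicates 1, 2 and 3, with 95% Wilson intervals of 3.99 to 4.06%, 2.91 to 2.95% and 3.23 to 3.29%. In mature replicates 1, 2 and 3 they had 930, 1086 and 810 reads, or 0.0225%, 0.0269% and 0.0178%. Of the members, 4224 (59.9%) had 0 mature reads and 2826 (40.1%) had 1.

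Many members stood close to the limits of the rule. The lowest immature count was exactly 3 in 2941 members (41.7%), and it was 10 or more in 548 (7.77%). Just outside stood 7794 sequences with a lowest immature count of 2 and at most 1 mature read, and 1606 that met the immature minimum but had 2 mature reads. The median of summed immature reads was 14 for members with a lowest count of 3 and 9 for the sequences whose lowest count was 2. It was 21 for members with 1 mature read and 24 for sequences with 2. The minimum of 3 reads stands for 2.17, 1.28 and 2.05 CPM in immature replicates 1, 2 and 3, so it was strictest in the smallest library.

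Levels of single members differed between the immature libraries. Most members had few reads, and the spread that counting error alone would give was not computed. The ratio of the highest to the lowest CPM over the immature libraries had a median of 2.12 and reached 17.1, and it was at most 2 in 45.5% of members. The highest CPM fell in replicate 1 for 3675 members, in replicate 3 for 2066 and in replicate 2 for 1309. The minimum of the rule, in CPM, was also highest in replicate 1 and lowest in replicate 2, and its part in this order was not tested. Among the 548 members with at least 10 reads in each immature library the median ratio was 1.85. The 3 with the largest ratios there are shown with the capitals used above.
uniq_8252826: TgaacagacAtggtgcagatctgagctg
uniq_6058063: Tgactgtcacctgaaaacggatggggc
uniq_8715344: Tggttcatcttttttctgaacagact

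uniq_8252826 had 20, 18 and 97 reads in immature replicates 1, 2 and 3, so it was high in replicate 3 only, with a ratio of 8.65. uniq_6058063 had 99, 24 and 19 reads and was high in replicate 1, with a ratio of 7.01. uniq_8715344 had 25, 10 and 40 reads, with a ratio of 6.42. Different libraries thus held the highest value of different members.

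The members were compared with the shared sequences, which met the same immature minimum but had 2 or more mature reads. There were 9561 of these, so that 42.4% of the 16611 sequences meeting the minimum were immature-restricted. Shared sequences were somewhat more abundant, with a median of 6.29 CPM in immature testis, and their highest reached 42860 CPM. Much of their reads came from fragments that start as glycine and glutamate tRNAs do: sequences sharing 16 nt with any of the 10 most read sequences of immature testis, all of this kind, made up 48.5% ± 7.35 (SD, n = 3) of shared reads. In the immature-restricted set only 9 members, with 0.0738% ± 0.0119 of reads, were related to them. The differences in read shares between restricted and shared sequences are therefore also given without these relatives, an alternative chosen after the data were seen. Counts of distinct sequences and values over all sequences include them.

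The restricted sequences were short. Lengths of 26 and 27 nt held 1906 and 2524 members, 27.04% and 35.8% of the set, and 28 nt held 978. From there the numbers fell away, to 802 at 29 nt, 255 at 30 nt, 125 at 31 nt and 28 at 32 nt. At the lower limit of the table, 25 nt, there were 432. The mean length was 27.2 nt for restricted, 27.9 nt for shared and 29.2 nt for the 52886 mature-restricted sequences, which were chosen by the mirrored rule.

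Weighted by reads, 29 to 32 nt made up 18.1%, 16.3% and 16.4% of the restricted reads in immature replicates 1, 2 and 3, against 61.3%, 70.5% and 58.6% of the shared reads. The groups of sequences did not overlap in any library. The mean difference, restricted minus shared, was -46.5 ± 6.61 percentage points (SD, n = 3) and negative in 3 of 3 libraries (two-sided exact permutation test with signs flipped within libraries, p = 0.25, the smallest that 3 libraries allow). Without the relatives of the tRNA fragments it was -18.7 ± 3.08 points, and with each distinct sequence counted 1 time it was -20.5 points. It was -25.4 ± 5.88 points among sequences with a lowest immature count of 3 to 5 reads and -19.8 ± 3.45 points against all other sequences of the immature libraries. The largest single contribution was at 31 nt, which held 1.59% ± 0.096 of restricted and 38.3% ± 8.56 of shared reads. At 27 nt the order was the opposite, with 35.9% ± 0.228 of restricted and 17.1% ± 3.1 of shared reads. The share of long reads in the mature-restricted set, measured in the mature libraries, was 75.1% ± 0.901. The restricted share of 16.96% ± 0.992 minus this share gave -58.1 points (exact permutation p = 0.1, the smallest that 3 against 3 libraries allow). This comparison also sets immature against mature libraries, in which all sequences together had 36.1% ± 2.9 and 71.5% ± 0.957 of reads at these lengths.

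Among sequences that met the immature minimum, the immature-restricted share was lower at greater length. Of such sequences 51.7% were restricted at 25 nt, 51.5% at 26 nt, 49.1% at 27 nt and 46.0% at 28 nt. At 29 nt the share was 31.7%, at 30 nt 21.1%, at 31 nt 14.1% and at 32 nt 14.7%. These shares use the same counts as the rule and describe where the members lie. The median of the mean CPM of the members was between 3.4 and 3.81 at every length. The minimum of the rule sets a floor to these levels, and its part in the narrow range was not tested.

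Most members began with uridine. This base was at position 1 in 6238 of 7050 (88.5%), with cytidine in 335, adenosine in 311 and guanosine in 166. By reads the share was 88.8%, 89.1% and 89.1% in immature replicates 1, 2 and 3, a narrow range. Among shared reads it was 50.9%, 42.3% and 49.7%. The mean difference was 41.3 ± 4.78 percentage points (SD, n = 3, higher in 3 of 3 libraries, exact permutation p = 0.25), but it depended on the sequences compared. Without the relatives of the tRNA fragments it was 13.8 ± 1.6 points, with each distinct sequence counted 1 time 6.06 points, and among sequences of both sets with a lowest immature count of 3 to 5 reads 2.74 ± 1.32 points. Against all other sequences of the immature libraries it was 13.997 ± 1.95 points. The mature-restricted set had 91.0% ± 0.192 of its reads with uridine at position 1. The 89.0% ± 0.199 of the restricted set minus this share gave -2.05 points (exact permutation p = 0.1). Over all sequences the share was 75.5% ± 1.91 in immature and 89.8% ± 0.611 in mature libraries.

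Uridine at position 1 was less frequent among longer members. It was found in 94.7% of members of 25 nt, 88.5% of those of 27 nt and 77.6% of those of 31 nt, and in 82.1% of the 28 members of 32 nt. The shared sequences went from 89.1% at 25 nt to 68.9% at 31 nt and 57.7% at 32 nt, whereas in the mature-restricted set the share lay between 90.02% and 95.2% at every length.

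Adenine at position 10, the mark of a ping-pong partner, stood out among the members that lack uridine at position 1. Of these 812 members 481 (59.2%) had it. At the other positions from 2 to 25 adenine made up 16.3 to 34.1% in the same members, so position 10 stood above all of these. The members with the highest level of this kind are shown with adenine at position 10 in capitals.
uniq_2352437: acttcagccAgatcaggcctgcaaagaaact
uniq_584280: gcctgtgtgAggaccaggtgaactgtg
uniq_2365676: ggctgaagtAgaacttctgctctgggtgt

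uniq_2352437 had 38, 110 and 17 reads in immature replicates 1, 2 and 3 and 1 mature read, in replicate 3. uniq_584280 had 38, 36 and 36 reads, lowest in replicate 2 by CPM, and 0 mature reads. uniq_2365676 had 34, 60 and 15 reads and also 0 mature reads. The first and the last of these were thus lowest in replicate 3, in reads and in CPM.

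By reads, adenine at position 10 made up 58.7%, 62.6% and 60.1% of restricted reads without uridine at position 1 in immature replicates 1, 2 and 3. Among shared reads it made up 4.92%, 4.69% and 7.08%. The mean difference was 54.9 ± 2.63 percentage points (SD, n = 3, higher in 3 of 3 libraries, exact permutation p = 0.25, or 0.25 after Benjamini-Hochberg adjustment over the 3 comparisons with shared sequences). It was 38.2 ± 3.47 points without the relatives of the tRNA fragments, 31.0 points with each distinct sequence counted 1 time and 22.7 ± 3.21 points among sequences with a lowest immature count of 3 to 5 reads. Against all other sequences of the immature libraries it was 36.7 ± 4.16 points. In the mature-restricted set the share was 43.2% ± 0.949 by reads. The 60.4% ± 1.98 of the restricted set minus this share gave 17.2 points (exact permutation p = 0.1, and 0.1 after adjustment over the 3 comparisons with that set). Over all sequences it was 24.3% ± 2.71 in immature and 43.5% ± 3.28 in mature libraries. By reads the mature-restricted share thus lay at the level of its libraries and the restricted share above that of its own. The 24.3% and the 36.7 points include the reads of the tRNA fragments and were not computed without them. With each distinct sequence counted 1 time, the share was 40.3% over all sequences, 59.2% in restricted and 42.0% in mature-restricted sequences.

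The share with adenine at position 10 depended on the first base and on the length. It was 65.3% of members that begin with adenosine, 56.7% of those with cytidine and 53.0% of those with guanosine, against 33.04% of those with uridine. Among shared sequences the corresponding shares were 36.6%, 34.5%, 12.5% and 30.2%. These include the 403 shared sequences (4.22%) related to the tRNA fragments, and shares without them were not computed. The most read of those fragments begins with guanosine and has guanine at position 10. Restricted members without uridine at position 1 had adenine at position 10 in 61.1% at 26 nt, 64.8% at 27 nt, 64.5% at 28 nt and 59.4% at 29 nt. At 25, 30 and 31 nt, with 23, 49 and 28 such members, the shares were 39.1%, 36.7% and 28.6%.

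Taking both bases, 4177 members (59.2%) had uridine at position 1 only, 2061 (29.2%) had both, 481 (6.82%) had adenine at position 10 only and 331 (4.7%) had neither. In the shared set, relatives of the tRNA fragments included, 12.6% had neither. The median of the mean CPM was 3.78, 3.77, 3.74 and 3.59 in these classes of members, in the same order. The highest was 101, 54.2, 28.7 and 23.0 CPM, in classes of unequal size. The rule sets a floor to these levels and many members stood near it. Its part in the similar medians was not tested. Mature reads were absent from 59.4%, 61.6%, 60.9% and 54.1% of the members of these classes, in the same order. Among members with uridine at position 1, adenine made up 33.04% at position 10, 33.1% at position 3 and 36.4% at position 5. Adenine at position 10 thus did not stand out in these members.

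Over all members, some other positions had base preferences as strong as adenine at position 10. Uridine made up 36.4% at position 6, and 34.8% at that position in shared sequences. Guanine was the most frequent base at position 2, with 39.4%, and reached 34.5% at position 24 and 33.5% at position 25. Adenine peaked at position 5 with 36.1%, as high as the 36.1% at position 10, and made up 35.9% at position 5 in shared sequences too. At position 10 shared sequences had 29.9% adenine. The last base of members was uridine in 37.0% and cytidine in 30.3%, and of shared sequences in 34.6% and 31.7%. The mean content of G and C was 46.5% in restricted, 46.2% in shared and 46.4% in mature-restricted sequences.

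Members were grouped by their 5′ end, taken as the first 25 nt. The 7050 members had 5209 different 5′ ends. Of these, 4033 ends belonged to 1 member, 783 to 2, 240 to 3, 99 to 4 and 54 to 5 or more, and the largest groups held 10. In all, 3017 members (42.8%) shared their 5′ end with another member. In the shared set 58.4% and in the larger mature-restricted set 65.9% did so, with up to 50 and 17 sequences at 1 end. Only 85 of the 1176 groups of 2 or more members were of a single length.

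The largest groups were 2 of 10 members, followed by 6 tied at 9, of which the 2 with the highest summed level were taken. The 2 most abundant members of each of these 4 groups are shown, with the part that follows the shared 25 nt in capitals.
uniq_9022126: tggttttgtcgtcagagctgagaccA
uniq_9022125: tggttttgtcgtcagagctgagaccC
uniq_2357597: ggctgaagtaggacttctgctctggGA
uniq_2382108: ggctgaagtaggacttctgctctggGC
uniq_5269072: ttccagagtttggacggctgtgtggA
uniq_2505830: ttccagagtttggacggctgtgtggT
uniq_5089013: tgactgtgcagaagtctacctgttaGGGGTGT
uniq_9304890: tgactgtgcagaagtctacctgttaGT

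The groups were ladders of 3′ ends in which the last base varied at a fixed length. The group of uniq_5269072 had 9 members of 26 to 30 nt, and at 26, 27, 28 and 29 nt it held a member ending in adenosine and another ending in uridine on the same stem. uniq_5269072 itself, ending in adenosine, had 49, 118 and 47 reads in immature replicates 1, 2 and 3. uniq_2505830, ending in uridine, had 30, 94 and 37. Both were highest in replicate 2, in reads and in CPM. The 10 members of the group of uniq_9022126 had 52, 251 and 114 reads summed in these libraries, and no mature read fell on any of the 26 sequences of the table with this 5′ end.

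The group of uniq_2357597 stood among many more sequences with the same end. Its 10 members had 76, 187 and 61 immature reads, while all 54 sequences with this end had 410, 755 and 242. In the mature libraries all of them had 4, 12 and 7 reads. The group of uniq_5089013 had 139, 169 and 107 member reads of 205, 252 and 179 at its end, and 8, 8 and 2 mature reads. For these ends most mature reads were on sequences outside the set.

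Variation at the 3′ end was also counted over the whole set. Members that differ from another member in the last base only numbered 649 (9.21%), and 1047 (14.9%) were another member with 1 nt added at the 3′ end. For 4336 of the 6618 members longer than 25 nt, the sequence without its last base was also in the table. The same counts were not made for shared sequences or for all sequences, so they describe the members only.

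The 5′ ends of members were often read in mature testis too, on other sequences and at a low level. All sequences of the table with a member's 5′ end, 56967 of them, took 12.4%, 9.76% and 10.6% of the reads of immature replicates 1, 2 and 3 and 0.365%, 0.457% and 0.322% of those of mature replicates 1, 2 and 3. Members themselves were 32.4%, 30.0% and 30.8% of the immature reads at these ends and 6.15%, 5.89% and 5.52% of the mature ones. The rule limits the mature reads of members but not those of the other sequences at the end. With members left out, the other sequences took 8.39%, 6.83% and 7.3% of immature and 0.343%, 0.43% and 0.305% of mature reads. The immature and mature libraries did not overlap in this measure, which is the contrast of the rule and was not tested.

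Of the 5209 ends, 1252 (24.04%) had 0 mature reads over all their sequences, 1176 (22.6%) had 1 and 738 (14.2%) had 10 or more. The median end had 50 immature and 2 mature reads and occurred with 5 of the 8 lengths, and 263 ends occurred with all 8. At 4095 ends (78.6%) the most read sequence in immature testis was a member. A single end had a higher share of mature than of immature reads. Counted by member, 3538 (50.2%) had 2 or more mature reads in other sequences of their end, 1123 (15.9%) had 10 or more and 95 (1.35%) had 100 or more. For the mature-restricted set, 71.8% had 2 or more immature reads in other sequences of their end. That set was read from deeper libraries, and the difference was not tested.

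Looking beyond the exact 5′ end, most members overlapped other small RNAs of the same strand. The median member shared a stretch of 20 nt with 40 other sequences of the table, which had 136 immature and 6 mature reads. For 829 members (11.8%) none of these had a mature read, for 2910 (41.3%) they had 10 or more and for 659 (9.35%) 100 or more. With the opposite strand and the member itself included, 547 members (7.76%) had no mature read on any sequence sharing 20 nt. None of these shares was computed for shared sequences or for all sequences, so they describe the members only.

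Among the members themselves, linking all that share 20 nt on the same strand gave 4062 groups. Alone stood 2806 members (39.8%), and 33 groups with 10 or more held 639. The largest had 144 members with 52 different 5′ ends and 2.63% of the immature reads of the set. Its reads came to 875, 947 and 750 CPM in immature replicates 1, 2 and 3 and to 3.38, 3.47 and 4.17 CPM in mature replicates 1, 2 and 3. The immature libraries thus lay close together. The mature level was limited by the rule, which allowed each member at most 1 mature read. Other sequences of the same strand sharing 20 nt with uniq_2354317, the most abundant member of the group, had 3414 mature reads in all. This member is shown with the leading members of the next 4 groups, to show that the groups come from different sequences.
uniq_2354317: tgaagtagaacttctgctctgcgtgtgcc
uniq_1184578: tggacacttggtgagcaagactgacagg
uniq_7172064: tagaccttgtgacttaggcagtgatgtg
uniq_8974123: ttgaaactaggctgctaagactgatgt
uniq_410708: tagtactctccgtgtctgtgaactgac

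The largest group ran over all lengths from 25 to 32 nt, and 61.8% of its members began with uridine, less than in the set as a whole. It held variant forms of related sequence: 61 members contained agtagaacttc and 67 contained agtaggacttc, which differ at a single base, and members differed at other bases as well. The groups led by uniq_1184578, uniq_7172064, uniq_8974123 and uniq_410708 had 44, 34, 32 and 29 members. All members of the groups led by uniq_7172064 and uniq_8974123 began with uridine. The group of uniq_410708 had 697, 239 and 265 CPM in immature replicates 1, 2 and 3, so replicate 1 stood above the others for the whole group and not only for its leading member.

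Shifted 5′ ends on the same strand were counted for members only and were more numerous at small distances. A member began 1 nt inside another in 505 cases, 2 nt in 363, 3 nt in 489, 4 nt in 237, 5 nt in 327 and 6 nt in 264. Larger shifts up to 11 nt gave 139 cases or fewer, but they need longer sequences to be seen with 20 nt in common.

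Opposite-strand partners were first sought as 5′ ends that overlap by 10 nt, that is, pairs of members whose opening 10 nt are complementary when read in opposite directions. There were 366 such pairs with 405 members (5.74%), which held 6.45%, 7.13% and 6.47% of the reads of the set in immature replicates 1, 2 and 3. Overlaps of 8, 9, 11, 12 and 13 nt gave 585, 172, 51, 58 and 110 pairs. From the base shares at each position alone, 325, 73.3, 54.2, 4.62, 1.31 and 0.337 pairs would be counted at 8, 9, 10, 11, 12 and 13 nt. The ratio of observed to such pairs was 1.8, 2.35 and 6.75 at 8, 9 and 10 nt and went on rising, to 11.04, 44.4 and 327 at 11, 12 and 13 nt, so by this ratio 10 nt was no peak. With the window in the partner shifted by 1 to 5 nt, 1.3 to 1.99% of members found a complement, with a mean of 1.59%, so the excess at 10 nt was 4.15 percentage points. Pairing of members with shared sequences gave 4.43% and an excess of 3.04 points, and pairing of shared sequences with each other 5.55% and 3.82 points. The sets differ in size, and these differences were not tested.

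Pairs of the classical form, with uridine at position 1 in 1 partner only, numbered 147 (40.2%). In 218 pairs (59.6%) both partners began with uridine, and then both have adenine at position 10. Of members without uridine at position 1, 8.87% were in a pair, and 14.6% of those that also had adenine at position 10, against 5.34% of members with uridine at position 1. In such a pair, adenine at position 10 of 1 partner follows from uridine at position 1 of the other. These shares therefore depend on how pairs were defined and on the bases of the members. The pairs used only 86 different combinations of ends, and 1 combination accounted for 47 of them. Members of the largest same-strand group took part in 126 pairs (34.4%). Without that group the excess was 3.27 points, and there were 240 pairs at 10 nt, 114 at 9 nt, 11 at 11 nt and 45 at 13 nt. For this smaller set, the pairs from base shares alone were not computed.

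The 5 pairs with the highest product of levels are those named by rule. In 4 of them uniq_2352437 met a member of the largest group, and the other joined uniq_7172064 and uniq_9023765. The complementary 10 nt are in capitals, and uniq_2352437 is shown 1 time.
uniq_2352437: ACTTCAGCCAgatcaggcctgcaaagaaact
uniq_2331908: TGGCTGAAGTagaacttctgctctgcgtg
uniq_2362580: TGGCTGAAGTaggacttctgctctgggc
uniq_2356707: TGGCTGAAGTaggacttctgctctgggta
uniq_2372602: TGGCTGAAGTaggacttctgctctggg
uniq_7172064: TAGACCTTGTgacttaggcagtgatgtg
uniq_9023765: ACAAGGTCTAacagtaaatgctgcatt

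Each of these pairs joins a sequence with uridine at position 1 to one with adenine at positions 1 and 10. uniq_2331908 had 20, 45 and 20 reads in immature replicates 1, 2 and 3 and 1 mature read. uniq_2362580, uniq_2356707 and uniq_2372602, which differ from each other at the 3′ end only, had 7, 26 and 15 reads, 5, 17 and 12 reads, and 7, 24 and 5 reads. uniq_7172064 had 104, 46 and 94 reads and its partner uniq_9023765 only 13, 12 and 11. By CPM both were highest in replicate 1 and lowest in replicate 2, at 75.2, 19.6 and 64.3 for the first and 9.41, 5.11 and 7.52 for the second.

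Other combinations of ends lay outside the largest group. A further pair, chosen after its values were seen, has uridine at position 1 and adenine at position 10 in both partners, and another joins a guanosine start with adenine at position 10 to a uridine start.
uniq_2342241: TAAGAAACAActcgctctgcacagtga
uniq_2360642: TTGTTTCTTAgactgcaaaagagctggaa
uniq_2368734: GTTCCCGGTAggctgtaagagcactgtg
uniq_2339759: TACCGGGAACatctcttccaaaggcctgt

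uniq_2342241 had 12, 39 and 5 reads in immature replicates 1, 2 and 3, and uniq_2360642 had 17, 32 and 16. uniq_2368734 had 31, 70 and 11 reads and uniq_2339759 had 5, 15 and 8. All 4 had their highest count in replicate 2, the library with the most reads.

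Longer complementary stretches were rarer within the set. A stretch of 20 nt on the opposite strand of another member was found for 272 members (3.86%), in 374 pairs. The 3 pairs with the highest product of levels all contain uniq_2352437. They are shown with the complementary stretch in capitals, which is 23 nt long in the first pair and in the second and 25 nt in the third.
uniq_2352437: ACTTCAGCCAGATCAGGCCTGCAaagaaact
uniq_2352537: TGCAGGCCTGATCTGGCTGAAGTaggact
uniq_2343239: TGCAGGCCTGATCTGGCTGAAGTagga
uniq_2352437: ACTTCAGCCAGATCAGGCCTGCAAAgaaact
uniq_2357108: TTTGCAGGCCTGATCTGGCTGAAGTaggac

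In each pair the stretch starts at position 1 of both partners, so the 5′ ends face each other over a duplex longer than the 10 nt overlap. uniq_2352537 had 26, 42 and 9 reads in immature replicates 1, 2 and 3, uniq_2343239 had 17, 31 and 6, and uniq_2357108 had 16, 33 and 4. All were lowest in replicate 3, as uniq_2352437 was. The same sequence thus had members of the largest group as partners at 10 nt and at over 20 nt.

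Opposite-strand sequences were also sought in the whole table. Neither these shares nor the share with 20 nt partners inside the set was computed for shared sequences or for all sequences. They describe the members only. A sequence sharing 20 nt with the reverse complement was found for 3745 members (53.1%), and for 1280 (18.2%) such sequences had 10 or more immature reads in all. Mature reads reached 10 for 307 members (4.35%). For 2328 of the 3745, or 62.2%, no mature read was found on the opposite strand. For uniq_2352437 the opposite strand had 2519 immature and 132 mature reads.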

How the data were processed

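The authors deposited a table of read counts: whole numbers, without normalization, for each distinct sequence in 6 libraries, whose columns carry the names of the labels per the file headers. The submitters' processing notes name Bowtie and no version of it. How sequences were called piRNAs, and on which genome build, is not given in the sources used here. Every column was used. No genome or small RNA reference was used, so sequences have no positions or repeat names.

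CPM values are counts over table totals, which are totals of listed sequences, not of sequencing. Shares were computed in Python 3.11.15 with pandas 2.3.3, NumPy 2.4.6 and SciPy 1.17.1. Read shares of members and shared sequences had 95% Wilson intervals of at most 1.33 percentage points to either side. Differences within the immature libraries were tested by flipping signs within libraries, and those between groups by permuting libraries, both two-sided and exact. No test across sequences was run. The computations were tested on 6900 simulated sequences. Sequences named are the 10 most abundant members, the 3 most abundant with adenine at position 10 and without uridine at position 1, the 2 most abundant in each of the 4 largest 5′ end groups (ties by summed level), the 5 and 3 most abundant opposite-strand pairs, and the 3 most variable members with at least 10 reads in each immature library. Leading members of same-strand groups were named in addition, chosen after the data were seen. Members and rules were chosen with earlier results of these data known. Alternatives were the limits of the rule, thinning to equal totals, libraries left out, the sequences compared and the lengths required.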

Additional observations from a re-analysis of the deposited data

How the results depend on the processing

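The differences in length, in uridine at position 1 and in adenine at position 10 between restricted and shared sequences kept their direction under every alternative run, and none could pass 0.05 with 3 libraries. The number of members and the descriptive shares followed the rule. With at least 5 reads in each immature library there were 2612 members with 1.92% of immature reads; 36.2% shared a 5′ end, 57.9% had an end read in mature testis, the 10 nt excess was 2.47 points and 2.79% had a 20 nt opposite partner. With 0 mature reads allowed these values were 4224, 1.84%, 32.8%, 47.2%, 3.24 points and 2.44%. With all libraries thinned to 1382083 reads there were 7885 members, 5191 of them members as deposited; they held 5.15% of reads, 49.0% shared an end, 37.4% had an end read in mature testis and 4.51% an opposite partner. With ends of 20 nt, 44.9% shared an end and 54.04% had it read in mature testis. With ends of 25 nt and 10 mature reads required, 15.9% had an end read in mature testis. With 1 member kept for each different first 20 nt, the 10 nt excess was 2.73 points. Over all members, 2% had an opposite partner when 24 nt were required. Without the largest same-strand group, an alternative chosen after the data were seen, the excess was 3.27 points and 3.36% had an opposite partner. Leaving out 1 library loosens the rule: the number of members then ran from 8166 to 13363, being 12195 without immature replicate 1 and 13363 without immature replicate 3. The share of immature reads ran from 4.09 to 5.27% (5.27% without immature replicate 3), members sharing an end from 42.3 to 47.6%, ends read in mature testis from 41.8 to 47.2%, the excess from 4.45 to 6.05 points and opposite partners from 4.02 to 5.58%. The planned matches to structured RNAs were not run, since no list of such RNAs was used here.

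Deviations of same-numbered immature and mature libraries had correlations over 3628 sequences of 0.0653, -0.0899 and 0.0297. Those of differently numbered libraries ran from -0.129 to 0.12. The labels give no pairing and this check cannot exclude one, so the numbers were not used as pairs in the main comparison. With a replicate block the comparisons with mature-restricted sequences had the same differences, -58.1, -2.05 and 17.2 points, and an exact p of 0.25 each, the smallest it allows.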

Other observations

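Sequences that differ from a member by 1 substitution at equal length were also counted. For 1531 members (21.7%) such neighbours had 2 or more mature reads, for 332 (4.71%) 10 or more and for 41 (0.582%) 100 or more. For 252 members (3.57%) the neighbours had over 10 times the immature reads of the member. A neighbour inside the set was found for 926 members (13.1%). The same shares were not computed for shared sequences or for all sequences. Sequencing errors and true variants cannot be told apart in these counts.

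The share of adenine at position 10 among sequences without uridine at position 1 differed across the limits of the rule. It was 55.3% among such members with 1 mature read and 36.1% among such sequences with 2 mature reads. Of the 1606 sequences with 2 mature reads, 86.4% began with uridine and did not enter this share. The 1606 belong to the shared set, and relatives of the tRNA fragments were not taken out. Across the immature limit the share was 58.7% among such members with a lowest count of 3 and 55.5% among such sequences with a lowest count of 2. Of the 7794 sequences with a lowest count of 2, 88.0% began with uridine and did not enter it. These differences were not tested.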
